A study of Mus musculus with 9 samples.

Results

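Sclerostin and the other secreted Wnt antagonists of the Sost, Dkk, Sfrp and Wif families were followed in RNA from the ossification front (OF), the zone of the femur beneath the growth plate where new bone is laid down. The genes were chosen by family and not by their values, although earlier results of these data were known. They were Sost, Sostdc1, Dkk1, Dkk2, Dkk3, Sfrp1, Sfrp2, Sfrp4, Frzb and Wif1, which are 10 of the 39179 genes listed. All 10 had a row in every library, 8 had a count in at least 1 library, and 7 passed the filter on low counts and were tested. Juvenile mice aged 4 weeks (n = 5) were compared with adult mice aged 12 weeks (n = 4), with 1 library per mouse. All mice were untreated, of C57BL/6 origin, and carried the Tg(TIE2GFP)287Sato/J transgene, in which the Tie2 promoter drives GFP in endothelial cells. Capillaries were found by their GFP and cut out by laser together with the cells around them, so each library holds RNA of endothelial cells, bone cells and marrow cells in unknown shares. In such material, fewer cells of a type and less RNA per cell cannot be told apart.

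Wnt ligands bind a Frizzled receptor and the co-receptor LRP5 or LRP6, which stabilises beta-catenin and, in bone, favours the formation and activity of osteoblasts. Secreted antagonists act at this step. Sclerostin, the product of Sost, is made mainly by osteocytes, the cells embedded in bone matrix, and binds LRP5 and LRP6, as DKK1 does, whereas the Sfrp proteins, FRZB and WIF1 bind the Wnt ligands themselves.

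Library totals ranged from 4856833 to 8077362 counts, and 3 counts, the least taken as detectable, corresponded to 0.371 to 0.618 CPM, the count scaled to the library total. This limit covers counting error only, because amplified reads are not independent molecules. Values are given as normalized counts, the counts of a library divided by its effective size after scaling by the trimmed mean of M-values (TMM). The 10 endothelial markers all had counts, with a summed level of 2852 to 4707 normalized counts in juvenile and 3439 to 4765 in adult libraries. The 12 osteoblast markers summed to far more, 1338888 to 1667918 in juvenile and 482843 to 735572 in adult libraries. Chondrocyte markers were highest in adult replicate 2, where they summed to 33128 normalized counts, and the other 8 libraries had 2371 to 6925. Neutrophil markers summed to 36.4 to 402 in juvenile and 572 to 26996 in adult libraries. Erythroid markers summed to 2610 to 16039 in juvenile and 29087 to 230776 in adult libraries. All 7 neutrophil and all 7 erythroid markers passed as higher in the adults in edgeR, as did 2 of 9 chondrocyte markers (Col2a1 and Comp) and 2 of 12 osteoblast markers (Bglap and Bglap2), whereas 6 of 12 osteoblast markers were higher in the juveniles. None of the 10 endothelial markers passed. Juvenile replicates 4 and 5 had Ddx3y counts of 524 and 439 and Xist counts of 11 and 1, whereas the other 7 libraries had Xist counts of 2965 to 6598. Sex was therefore mixed in the juvenile group and not in the adult group.

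The stretches of GRCm38 just upstream of Sost, Wif1 and Dkk2 are printed because Sost had the largest difference between the ages, Wif1 had the highest level, and Dkk2 had the second largest difference towards the adults. The sequences are those of RefSeq on the gene's own strand, 5′ to 3′, and each ends at the base before the first annotated transcript. Capitals mark TATAAA or its reverse complement and the E-box CANNTG, on either strand. Sost lies on chromosome 11 (chr11:101967016-101967265, minus strand), Wif1 on chromosome 10 (chr10:121033754-121033959, plus strand) and Dkk2 on chromosome 3 (chr3:132085042-132085291, plus strand).
Sost: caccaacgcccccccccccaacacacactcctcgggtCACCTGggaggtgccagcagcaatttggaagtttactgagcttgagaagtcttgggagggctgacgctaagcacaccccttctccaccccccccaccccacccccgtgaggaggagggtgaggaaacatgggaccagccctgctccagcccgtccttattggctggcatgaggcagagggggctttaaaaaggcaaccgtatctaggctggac
Wif1: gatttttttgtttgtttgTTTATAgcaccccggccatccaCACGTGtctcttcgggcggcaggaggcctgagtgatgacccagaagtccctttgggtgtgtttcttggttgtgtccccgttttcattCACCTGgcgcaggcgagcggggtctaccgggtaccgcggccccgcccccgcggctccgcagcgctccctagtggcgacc
Dkk2: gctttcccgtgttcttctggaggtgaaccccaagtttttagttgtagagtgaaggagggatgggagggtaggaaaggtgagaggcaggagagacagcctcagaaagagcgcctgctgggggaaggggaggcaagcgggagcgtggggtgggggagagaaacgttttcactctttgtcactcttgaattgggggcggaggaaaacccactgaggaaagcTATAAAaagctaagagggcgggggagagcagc

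The Dkk2 window held TATAAA 32 bases before the RefSeq start. The Wif1 window held it 232 bases before the RefSeq start on the other strand, and held an E-box at 210 and 123 bases. The Sost window held 1 E-box, 213 bases before the start. In the 250 bases upstream, TATAAA was present in 3 of the 6 antagonists with a RefSeq promoter entry and in 12.4% of all 32851 promoters, and CANNTG in 3 of 6 and in 66.2%. The TCF/LEF core CTTTGA was present in Dkk1 and Frzb, 2 of the 6, and in 13.8% of all promoters. The RUNX core TGTGGT was present in Dkk1, 1 of the 6, and in 14.0%. A match is a description of the letters and not evidence of a bound factor. Sfrp4, Sfrp1, Dkk3 and Sostdc1 had no entry.

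The first question was whether the antagonists differed between the ages. None of the 7 antagonists tested passed in edgeR (quasi-likelihood test, adjusted p under 0.05), against 3.88% of the 13418 genes tested. At an unadjusted p under 0.05 there was 1 of 7, Sost, against 17.3% of all genes. The log2 fold change, juvenile over adult, was above 0 in 2 of the 7, and its median was -0.64 against -0.01 over all genes tested. Sost passed the filter through its adult libraries and Frzb through its juvenile libraries, where each has its higher mean. The signs and the median are therefore no support for a direction. The share of antagonists that passed was thus not above that of all genes.

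Sost (ENSMUSG00000001494, chr11:101962458-101967015, minus strand) was the antagonist with the widest gap between the ages. In the juvenile libraries 1 to 5 it had 27.3, 0, 37.4, 1.2 and 10.6 normalized counts, from 24, 0, 28, 1 and 8 reads. Adult libraries 1 to 4 had 329.4, 81.8, 166.2 and 67.6, from 454, 78, 214 and 86 reads. Every adult library was above every juvenile library, a separation that 4.08% of all genes tested showed in that direction. The means were 15.3 ± 16.5 in the juveniles (SD, n = 5) and 161 ± 120 in the adults (SD, n = 4), 10.5-fold higher in the adults.

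The log2 fold change of Sost was -3.40 with a SE of 1.03, and its adjusted p of 0.0881 in edgeR missed the threshold. Sost entered the test through its adult libraries alone, since the juvenile counts were too low to pass the filter, so its being tested is not independent of the difference. With DESeq2, the tool the study used for its comparison, the adjusted p was 0.00772, where 9.47% of all genes passed. The study's own selection also required a mean expression above that of Sost at either age, and a stricter p. With limma voom and quality weights the adjusted p was 0.0483, where 3.43% of all genes passed. Without adult replicate 1, the highest library, the log2 fold change was -2.79 with an adjusted p of 0.192 in edgeR.

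**Figure D1:**
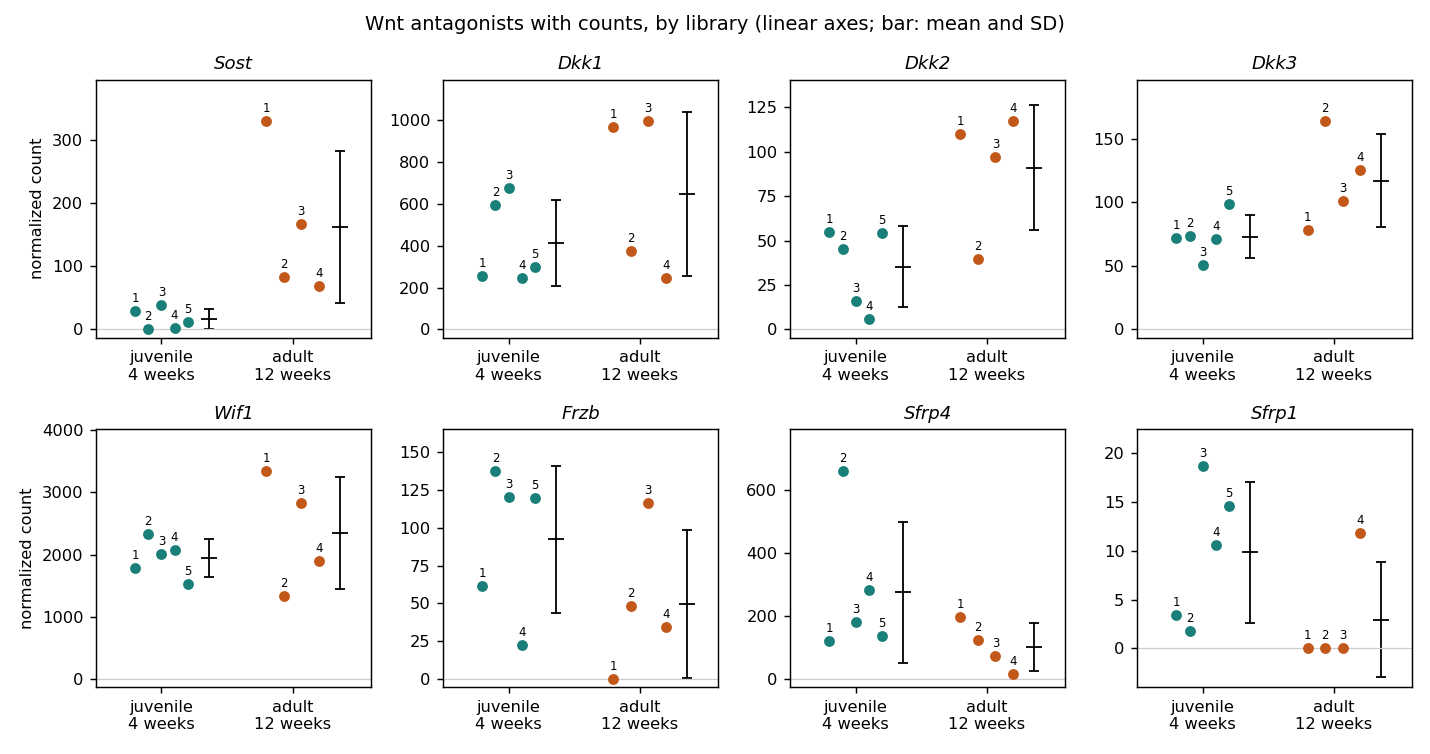
Normalized counts (linear axes) of the 8 antagonists with counts, 1 point per library labelled with its replicate number, in juvenile (4 weeks, n = 5) and adult (12 weeks, n = 4) mice; bars are mean and SD. Sost is the antagonist whose groups do not overlap, with at most 37.4 in a juvenile and at least 67.6 in an adult library.

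Sostdc1 (ENSMUSG00000036169, chr12:36314139-36318452, plus strand), the closest relative of Sost and like it a ligand of LRP co-receptors, had 0 counts in all 9 libraries. This allows a level of up to 0.371 to 0.618 CPM per library.

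Dkk1 (ENSMUSG00000024868, chr19:30545863-30549665, minus strand) encodes an inhibitor that binds LRP6 and the Kremen proteins. Its normalized counts were 253.7, 596.7, 678.5, 245.1 and 299.3 in juvenile libraries 1 to 5. Adult libraries 1 to 4 had 970.0, 374.2, 995.5 and 246.9. Adult replicates 1 and 3 were above all juvenile libraries, whereas replicates 2 and 4 lay within the juvenile range. The means were 415 ± 207 for juveniles (SD, n = 5) and 647 ± 392 for adults (SD, n = 4), and the log2 fold change of -0.64 (SE 0.44) did not pass (edgeR adjusted p = 0.525). It was -0.40 without adult replicate 1 and -0.38 without adult replicate 3.

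Dkk2 (ENSMUSG00000028031, chr3:132085292-132180304, plus strand), which can inhibit or activate LRP6 depending on the Kremen proteins present, had 54.6, 45.2, 16, 5.9 and 54.5 normalized counts in juvenile libraries. The adult libraries had 110.3, 39.8, 97.1 and 117.2. Adult replicates 1, 3 and 4 were above all juvenile libraries, and adult replicate 2 was within their range. The means of 35.3 ± 22.8 (SD, n = 5) and 91.1 ± 35.2 (SD, n = 4) gave a log2 fold change of -1.37 (SE 0.70), which did not pass (edgeR adjusted p = 0.348).

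Dkk3 (ENSMUSG00000030772, chr7:112116017-112159057, minus strand) is the divergent member of its family and is not a typical LRP6 inhibitor. It had 71.7, 73.2, 50.8, 70.7 and 98.4 normalized counts in juvenile and 78.4, 163.5, 100.9 and 125.0 in adult libraries. Adult replicate 1 was the adult library inside the juvenile range. The log2 fold change was -0.68 with a SE of 0.44 (edgeR adjusted p = 0.491).

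Wif1 (ENSMUSG00000020218, chr10:121033960-121100650, plus strand), whose product binds Wnt ligands through its WIF domain, was the most abundant antagonist. Its normalized counts were 1786, 2330, 2002, 2071 and 1530 in juvenile and 3340, 1327, 2820 and 1901 in adult libraries. Adult replicates 1 and 3 were again the highest of the 9, and adult replicate 2 the lowest. The means were 1944 ± 302 for juveniles (SD, n = 5) and 2347 ± 904 for adults (SD, n = 4). The difference was smaller than the spread of the adults, with a log2 fold change of -0.27 (SE 0.24, edgeR adjusted p = 0.655). It was -0.069 without adult replicate 1 and -0.49 without adult replicate 2.

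Sfrp4 and Frzb, which carry a Frizzled-like cysteine-rich domain that holds Wnt ligands, had higher means in the juvenile libraries. Sfrp4 (ENSMUSG00000021319, chr13:19623104-19632994, plus strand) had 119.5, 660.9, 180.3, 282.8 and 138.4 normalized counts in juvenile libraries. Adult libraries had 197.3, 123.7, 73.8 and 15.7. The groups overlapped, and juvenile replicate 2 stood above the other 8 libraries. The means were 276 ± 224 for juveniles (SD, n = 5) and 103 ± 77.0 for adults (SD, n = 4), 2.69-fold higher in the juveniles, and the log2 fold change of 1.43 (SE 0.66) did not pass (edgeR adjusted p = 0.291). Without juvenile replicate 2 it was 0.81.

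Frzb (ENSMUSG00000027004, chr2:80411970-80447625, minus strand) had 61.4, 137.4, 120.2, 22.4 and 119.7 normalized counts in juvenile and 0, 48.2, 116.5 and 34.6 in adult libraries. Its groups overlapped widely, and adult replicate 1, the highest library for Sost and Wif1, was the library without a Frzb read. Frzb passed the filter through its juvenile libraries, so its being tested is not independent of the direction. The log2 fold change was 0.89 with a SE of 1.0 (edgeR adjusted p = 0.741). It was 0.45 without adult replicate 1 and 1.73 without adult replicate 3.

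Sfrp1 (ENSMUSG00000031548, chr8:23411502-23449632, plus strand) was near the detection limit and did not pass the filter. Its reads were 3, 2, 14, 9 and 11 in juvenile and 0, 0, 0 and 15 in adult libraries, or 3.4, 1.8, 18.7, 10.6 and 14.6 against 0, 0, 0 and 11.8 normalized counts. The means of both ages, compared by exact permutation (two-sided), gave p = 0.111, where the smallest p that the 126 splits allow is 0.0159. Sfrp2 (ENSMUSG00000027996, chr3:83766321-83774316, plus strand) had 0 counts in all 9 libraries, which allows up to 0.371 to 0.618 CPM. It is the only antagonist whose exons overlap those of another gene, over 347 bases of Gm26771 on the opposite strand.

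**Figure D2:**
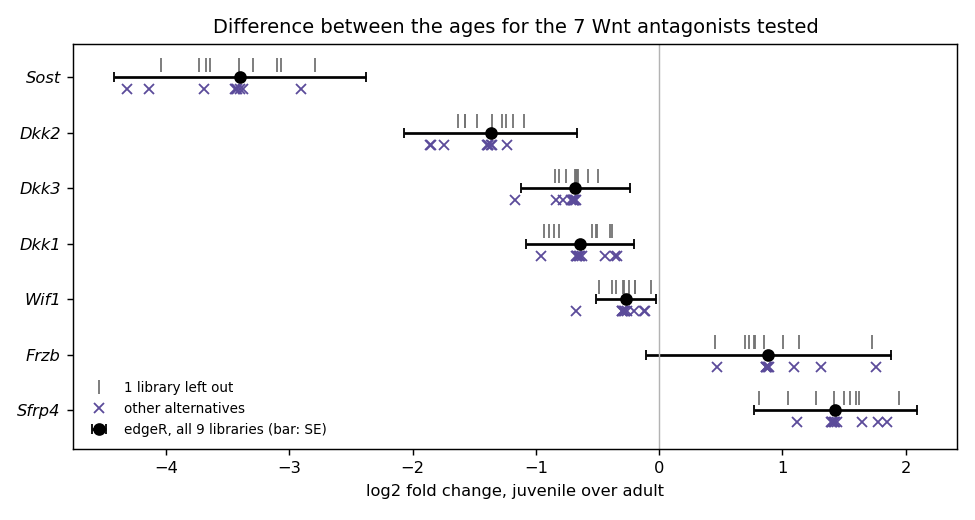
Log2 fold change, juvenile over adult, for the 7 antagonists tested, with the edgeR estimate from all 9 libraries (filled point, bar SE), the estimates with 1 library left out (ticks) and the other alternatives (crosses). The estimates of each gene stay on 1 side of 0, and the SE is smallest for Wif1 (0.24) and largest for Sost (1.03).

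The order of the levels was compared per length, as normalized counts per kb of exon. In the juvenile libraries Wif1 was first at 801 ± 124 (SD, n = 5), followed by Dkk1 at 171 ± 85.1 and Sfrp4 at 66.1 ± 53.6. Frzb (28.5 ± 15.0) and Dkk3 (21.7 ± 5.05) came next, then Dkk2 (9.52 ± 6.15), Sost (7.41 ± 7.98) and Sfrp1 (2.25 ± 1.65). Among neighbours in this order, Wif1 and Dkk1 did not overlap across libraries, nor did Dkk3 and Dkk2, and all other neighbours did.

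In the adult libraries Wif1 was again first at 967 ± 372 normalized counts per kb (SD, n = 4) and Dkk1 second at 266 ± 161. Sost came after them at 78.0 ± 58.2, where in the juveniles only Sfrp1 was below it among the 8 antagonists with counts. Dkk3 had 34.8 ± 10.8, Dkk2 24.6 ± 9.49, Sfrp4 24.6 ± 18.4, Frzb 15.4 ± 15.1 and Sfrp1 0.674 ± 1.35. Only Wif1 and Dkk1 did not overlap among neighbours, and Sost was above Dkk3 in 2 of the 4 adult libraries.

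Wif1 made up 66.6% to 80.9% of the summed per-kb level of the antagonists in juvenile and 64.7% to 78.0% in adult libraries. Dkk1 made up 9.57% to 22.8% and 10.1% to 23.3%. These 2 genes therefore held most of the antagonist transcript level at both ages. The share of Sost was 0% to 1.48% in juvenile and 3.26% to 7.83% in adult libraries. The summed level was 1107 ± 229 normalized counts per kb (SD, n = 5) and 1411 ± 577 (SD, n = 4).

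**Figure D3:**
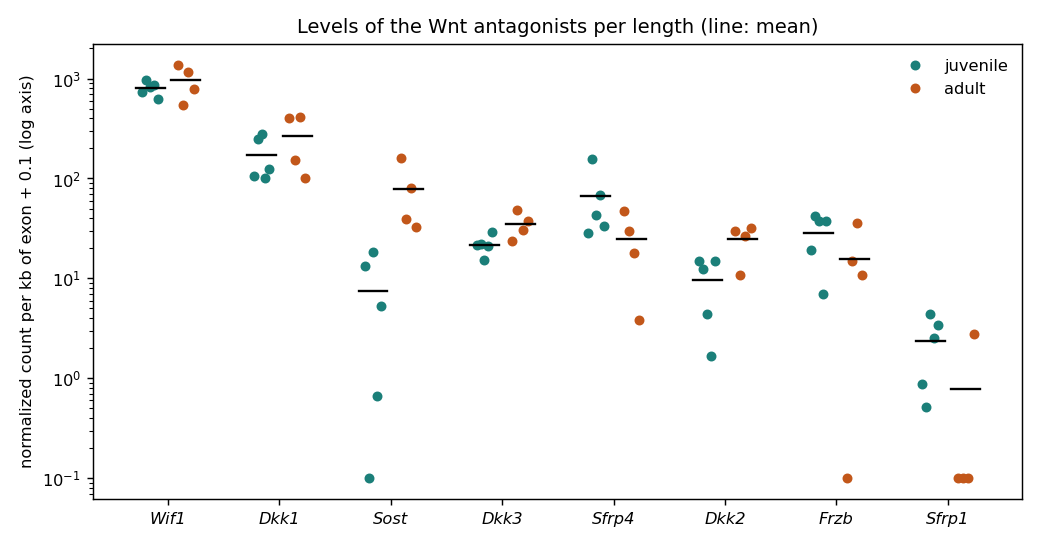
Levels of the 8 antagonists with counts as normalized counts per kb of exon plus 0.1 (log axis), 1 point per library (juvenile n = 5, adult n = 4) and a line at the mean. Wif1 is above Dkk1 in all 9 libraries, and Sost moves from a mean of 7.41 in juvenile to 78.0 in adult libraries.

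Because the summed level of the osteoblast markers was lower in the adult libraries, although Bglap and Bglap2 were higher there, the antagonists were also set against the mean log2 CPM of the 12 markers in the same library, with a prior count of 2. On this scale Sost was -10.71 ± 1.95 in the juveniles (SD, n = 5) and -6.49 ± 0.78 in the adults (SD, n = 4), a difference of -4.21. The highest juvenile library was at -8.62 and the lowest adult library at -7.17, so the groups, already apart before this step, stayed apart. Of the 12 markers, 10 had a log2 fold change above 0, and subtracting their mean moves every antagonist towards the adults. The separation of Sost on this scale is therefore no independent check. All other antagonists with counts overlapped between the ages on this scale. Their differences ran from -1.99 for Dkk2 to 1.21 for Frzb, with -0.97 for Dkk1, -1.08 for Dkk3 and -0.63 for Wif1. Against the median of the markers in place of their mean, Dkk1 was at -0.073 and Dkk3 at -0.18, and Wif1 turned to 0.27.

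With library sizes scaled to the osteoblast markers, Sost passed in edgeR (log2 fold change -3.69, adjusted p = 0.0389), and it was the 1 antagonist of 7 to do so. This scaling moved the median of all genes by -0.45 on the log2 scale. It changed the calls over all genes from 267 higher in juvenile and 253 higher in adult libraries to 119 and 1035, so that 8.6% of all genes passed.

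By in situ hybridisation (RNAScope), the paper detected Sost in cortical bone and not in the OF. Which cells gave the Sost reads of these libraries was not tested. Sost was next set beside the genes of osteocytes, its usual source, and beside Bglap, a gene of mature osteoblasts. Dmp1, a matrix protein of osteocytes and late osteoblasts, went the other way, from 8896 ± 2903 normalized counts in the juveniles (SD, n = 5) to 2339 ± 535 in the adults (SD, n = 4), with a log2 fold change of 1.93 (SE 0.25, edgeR adjusted p = 0.00203). Phex, an endopeptidase of osteocytes that acts in phosphate handling, overlapped between the ages, with a log2 fold change of 0.34 (edgeR adjusted p = 0.609). Fgf23, the phosphate hormone of osteocytes, had 0 counts in all libraries. In the same libraries, Sost had its higher values in the adults and Dmp1 in the juveniles. In the OF, the paper located Dmp1 mRNA mainly in osterix-positive osteoblasts, so Dmp1 does not mark osteocytes alone in these libraries.

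Mepe, another osteocyte matrix gene, had 0, 45.2, 56.1, 359 and 21.3 normalized counts in juvenile and 330, 116, 248 and 229 in adult libraries. Apart from juvenile replicate 4 its adult libraries were above the juvenile ones, and its log2 fold change of -1.26 (SE 0.97) did not pass (edgeR adjusted p = 0.587). In juvenile replicate 4, where Mepe was highest, Sost had a single read. Pdpn, which encodes podoplanin of early osteocytes, had a log2 fold change of 1.55 (edgeR adjusted p = 0.153). Irx5 and Ptprz1, also on the osteocyte list, had 0.59 and 0.18 (edgeR adjusted p = 0.331 and 0.857). Of the osteocyte markers, 6 were tested, 5 had a log2 fold change above 0, and 1 passed, Dmp1, higher in the juveniles.

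Bglap, which encodes the osteoblast product osteocalcin, had 5396 to 15195 normalized counts in juvenile libraries. Its adult libraries 1 to 4 had 59063, 15776, 59325 and 19299, and it was higher in the adults (log2 fold change -2.04, SE 0.40, edgeR adjusted p = 0.0151). Its reads may be split with its near-identical copies. Of the 12 osteoblast markers, only Bglap and Bglap2 passed as higher in the adults in edgeR, and 6 passed as higher in the juveniles. Bglap therefore does not stand for the osteoblast markers as a set. Adult replicates 1 and 3, the highest for Bglap, were also the highest for Sost, Dkk1 and Wif1. Whether the osteoblast, neutrophil and erythroid contents of the libraries took part in these differences was not tested.

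**Figure D4:**
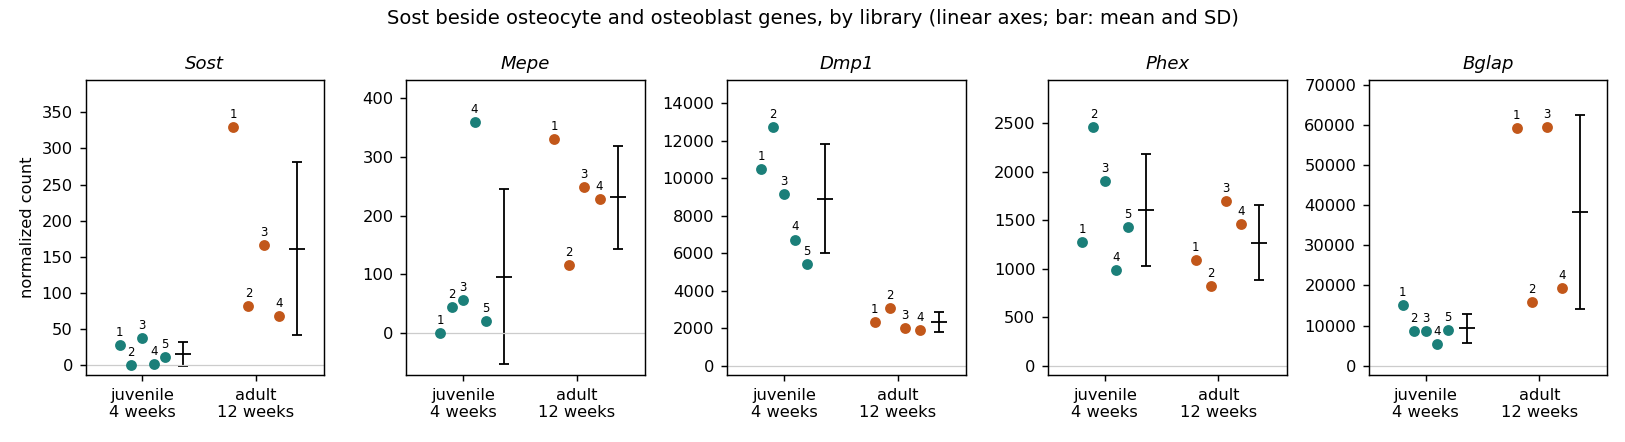
Normalized counts (linear axes) of Sost, of Mepe, Dmp1 and Phex from the osteocyte list, and of the osteoblast gene Bglap. Each library is 1 point with its replicate number, and bars are mean and SD. Sost and Bglap are highest in adult replicates 1 and 3, whereas Dmp1 is higher in all juvenile libraries. Bglap is 1 of 2 osteoblast markers, of 12, that passed as higher in the adults in edgeR, and 6 passed as higher in the juveniles.

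The genes most like Sost across the 9 libraries were ranked by the root mean square difference of their log2 CPM from that of Sost, each gene centred on its own mean. They were Tfec at 0.987, Spint2 at 1.01 and Pi15 at 1.12, against a median of 2.49 over all genes tested. Because they were chosen for this likeness, their own values are given as a description, with no test. Spint2, which encodes a serine protease inhibitor, had 21.1 ± 23.6 normalized counts for juveniles (SD, n = 5) and 190 ± 77.0 for adults (SD, n = 4). Pi15, a peptidase inhibitor gene, had 6.97 ± 9.09 against 115 ± 81.1, and Tfec, a transcription factor gene of the MiT family, 14.3 ± 14.7 against 52.0 ± 51.4. The ages overlapped for Pi15 and Tfec and not for Spint2.

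The rest of the Wnt pathway was described from a list of 68 genes, of which 57 had counts and 37 were tested. Of the 37, 1 passed as higher in juvenile and 1 as higher in adult libraries, against 1.99% and 1.89% of all genes. The median log2 fold change was 0.64, against -0.01 over all genes tested, and 28 of 37 were above 0, against 6642 of 13418. The 37 include genes, such as Axin2 and Fzd1, that passed the filter through their juvenile libraries, where they are high. These values are therefore no support for a direction.

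Tcf7, a transcription factor that works with beta-catenin and is itself raised by Wnt signalling, was the gene higher in the juveniles. Its normalized counts were 790 to 966 in juvenile libraries and 175, 386, 119 and 107 in adult libraries, without overlap. The means were 854 ± 68.7 for juveniles (SD, n = 5) and 197 ± 130 for adults (SD, n = 4), a log2 fold change of 2.12 (SE 0.35, edgeR adjusted p = 0.00636). In the 7 libraries with more Xist than Ddx3y counts its log2 fold change was 2.05 and it no longer passed (edgeR adjusted p = 0.0809). Of the feedback targets of the pathway, 4 were tested and 1 passed, Tcf7. At an unadjusted p under 0.05 there were 4 of 4, against 17.3% of all genes, all with a positive log2 fold change. This count includes Axin2, which passed the filter through its juvenile libraries, where it is high, and so is no support for a direction. Axin2, the negative regulator commonly used as a Wnt readout, had 27.3, 41.6, 30.7, 84.8 and 9.31 normalized counts in juvenile libraries. Adult replicate 1 had 9.43, from 13 reads, and adult replicates 2, 3 and 4 had 0 (log2 fold change 3.93, SE 1.43, edgeR adjusted p = 0.157). Nkd2, another feedback inhibitor, had a log2 fold change of 1.5 (edgeR adjusted p = 0.0603).

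Among the other antagonists, 7 of 15 were tested and 1 passed. Igfbp4, which binds insulin-like growth factors and can also block LRP6, was higher in the adults, with 1868 ± 277 normalized counts (SD, n = 5) against 3393 ± 902 (SD, n = 4) and no overlap (log2 fold change -0.86, SE 0.19, edgeR adjusted p = 0.0267). It no longer passed without juvenile replicate 1, 4 or 5 or adult replicate 1 (edgeR adjusted p = 0.0514 to 0.0754), nor in the 7 libraries with more Xist than Ddx3y counts (0.196). Notum, an enzyme that removes the lipid of Wnt ligands, had higher values in every juvenile than in any adult library but did not pass (468 ± 205 against 212 ± 54.5, log2 fold change 1.14, edgeR adjusted p = 0.0809).

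None of the 14 receptors tested passed. Lrp4, the co-receptor that presents sclerostin and anchors it in bone, had 799 ± 175 normalized counts (SD, n = 5) against 1135 ± 271 (SD, n = 4), with a log2 fold change of -0.51 (SE 0.22, edgeR adjusted p = 0.243). Lrp5 and Lrp6, the targets of sclerostin and DKK1, had log2 fold changes of 0.68 and -0.34 (edgeR adjusted p = 0.616 and 0.689). Kremen1, the partner of DKK1, had 252 ± 49.5 normalized counts (SD, n = 5) against 253 ± 148 (SD, n = 4), and Kremen2 had at most 5.50 normalized counts. Lrp4, Lrp5, Lrp6 and Kremen1 were thus detected at both ages, with overlapping values. Kremen2 had 1 to 6 reads in juvenile and 1 to 7 in adult libraries, partly under the 3 counts taken as detectable.

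Of the 19 ligands, 10 had counts, 6 were tested and none passed. Wnt5b, a ligand of the branch that does not need beta-catenin, had 276 ± 109 normalized counts (SD, n = 5) against 115 ± 73.8 (SD, n = 4) (log2 fold change 1.27, SE 0.47, edgeR adjusted p = 0.166). Of the 6 secretion and agonist genes tested none passed. Porcn, which adds the lipid to Wnt ligands, had 402 ± 107 (SD, n = 5) against 264 ± 41.1 (SD, n = 4) (log2 fold change 0.60, SE 0.26, edgeR adjusted p = 0.234).

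**Figure D5:**
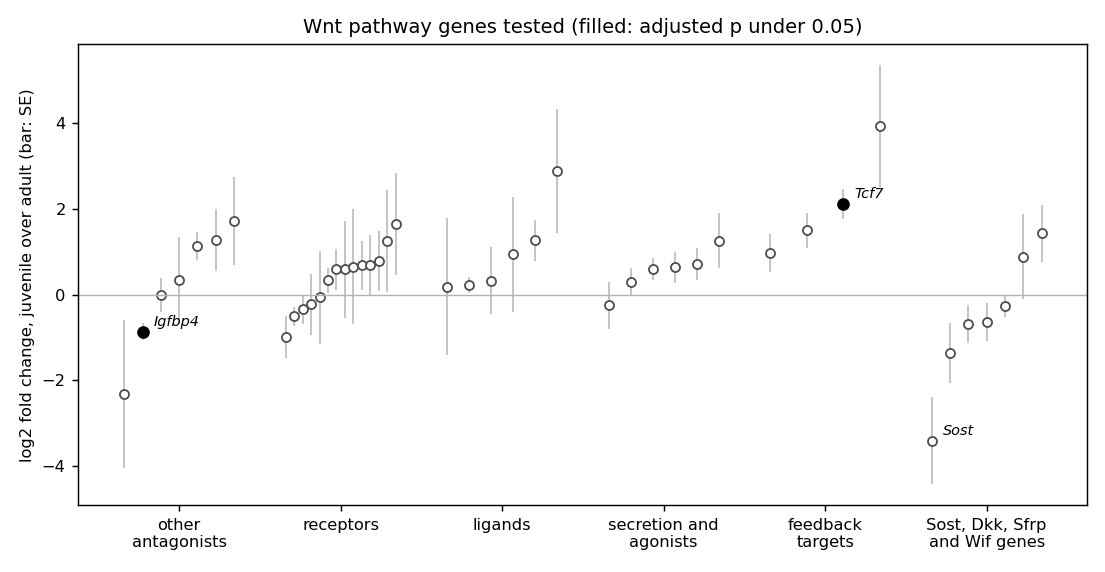
Log2 fold change, juvenile over adult, with its SE for the 37 tested genes of the Wnt pathway list in 5 classes and the 7 tested Sost, Dkk, Sfrp and Wif genes; filled points have an adjusted p under 0.05. Tcf7 at 2.12 and Igfbp4 at -0.86 are the filled points, and Sost at -3.40 is the lowest of the antagonists.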

How the data were processed

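Laser-cut capillaries with surrounding cells from the femoral OF of 5 juvenile and 4 adult mice were used, grouped by the ages in the labels. The authors amplified cDNA with SMART-Seq v4, tagmented it with Nextera XT and mapped 75 bp paired-end reads to mm10 with TopHat2 and Bowtie2. They deposited raw counts per Ensembl gene, which the submitters' processing notes link to featureCounts. Program versions, annotation release, strand setting and pair handling are not given in the sources used here. Symbols came from GENCODE M21 on GRCm38, in which 96.2% of the genes have an entry. Ages were compared with edgeR 4.0.16 in R 4.3.3 (filterByExpr, TMM, quasi-likelihood F test, Benjamini-Hochberg adjustment over all genes tested, threshold 0.05). Alternatives used DESeq2 1.42.0, limma 3.58.1, other scalings and filters, a replicate block, the 7 libraries with more Xist than Ddx3y counts, and each library left out. The fits were tested on simulated data. Figures were drawn with matplotlib 3.10.9. The antagonists, gene lists and tests were chosen with earlier results of these data known. Genes named beyond the antagonists were the osteocyte markers and Bglap, the 3 genes nearest to Sost, every Wnt list gene that passed, and the gene with the smallest p in each class without one. Bglap, Axin2, Nkd2, Notum, Lrp5, Lrp6 and the Kremen genes were named for their known roles after their values were seen. Nothing in the labels says more about how the libraries of a group differ, so p-values measure the spread between these libraries.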

Additional observations from a re-analysis of the deposited data

Results flagged for a closer look

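Sfrp1 in adult replicate 4 stood apart from the other adults. It had 11.8 normalized counts, where the other 3 adult libraries had 0, so the gap to the nearest library was the whole range of the group. Of the 16 groups of antagonist values looked at in this way, 0.8 would be set apart by chance, at 1 in 20.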

How the results depend on the processing

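The number of antagonists that passed was 0 and became 1, Sost, with the osteoblast marker scaling, DESeq2 and voom with quality weights (adjusted p = 0.0389, 0.00772 and 0.0483). It stayed 0 under the other settings and with any 1 library left out (range 0 to 0), where the log2 fold change of Sost was -4.04 to -2.79 and its adjusted p 0.0800 to 0.194 in edgeR. With the replicate block, Sost was at -4.32 (edgeR adjusted p = 0.133). In the 7 libraries with more Xist than Ddx3y counts it was at -2.91 (edgeR adjusted p = 0.363). At a minimum of 10 counts in every library, Sost, Dkk2 and Frzb were not tested. No antagonist changed its direction in any setting that tested it. The number of Wnt list genes that passed was 2, and 6 with DESeq2. The latter is out of the 57 genes with a count, whether or not DESeq2 gave them an adjusted p. The number was 4 at a minimum of 10 counts in every library and 1 with the replicate block. It was 0 in the 7 libraries, where 6 genes had an unadjusted p under 0.05 in edgeR. With 1 library left out it was 1 to 3, and 1 without juvenile replicate 1, 4 or 5. Igfbp4 had an adjusted p of 0.182 with the block and 0.196 in the 7 libraries, and Tcf7 0.0809 in the 7 libraries. Relative to the median of the osteoblast markers in place of their mean, the differences were -0.073 for Dkk1, -0.18 for Dkk3 and 0.27 for Wif1, so that Wif1 changed sign. The causes of these changes were not tested. Over all genes, 520 passed, against 1490 with DESeq2, 1154 with the osteoblast scaling, 89 with the block and 73 in the 7 libraries. Deviations of libraries of the same number correlated at 0.027, -0.032, 0.019 and 0.030, where all pairings had -0.03 to 0.03. So few pairs cannot tell whether the numbers mark a shared litter or batch. The block also takes residual degrees of freedom. Juvenile reads of Sost (0 to 28) and all reads of Sfrp1 (0 to 15) are few, which limits their precision.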

Other observations

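Markers of other cells of the OF that the comparison of the antagonists did not use gave these counts in edgeR. Of 8 adipogenic marrow stroma markers, 1 passed as higher in the juveniles and 2 as higher in the adults. Of 6 tested periosteum, tendon and fibroblast markers, 1 passed in each direction. Of 9 osteoclast markers, 2 passed as higher in the adults, and none of the 8 tested pericyte and smooth muscle markers passed. Skeletal muscle markers summed to 3.41 to 47.9 normalized counts in juvenile and 0 to 85.6 in adult libraries, with Myh4 at 0 in all of them.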
